A study of Homo sapiens with 5 samples.

Results

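The peaks described here are the gene-desert peaks of histone H2A lysine 130 acetylation (H2A-K130ac) in C4-2B cells, defined as peaks that the deposited annotation calls distal intergenic and places at least 500 kb from the nearest annotated transcription start site. They numbered 3898 of the 67806 annotated peaks of cells treated with abiraterone (5.75%, exact 95% binomial interval 5.57 to 5.93%) and 4064 of the 91398 annotated peaks of cells treated with Romidepsin (4.45%, 4.31 to 4.58%), or 7962 of 159204 in all. All intervals given here cover counting error only. C4-2B is a human prostate cancer cell line, although the sample labels write breast cancer for its cell type. Peak lists hold no expression values with which the cell type could be checked. ChIP-seq with an antibody against H2A-K130ac was deposited as 1 library per treatment, although the study's reporting form says that samples were run in duplicate. Each deposited list names an input as its control, whereas that form names the vehicle-treated sample. The treatment and growth texts of both samples describe only VCaP, another prostate cancer line, with 0.5 µM Romidepsin, so the doses and times used for C4-2B are not known from them. With 1 library per treatment no test between treatments was possible, and all values describe these libraries. The peak lists give no reads per peak, and the depth behind each peak is unknown. Positions are those of hg19.

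Gene deserts are long stretches of a chromosome without genes, and several of them flank genes for transcription factors or neuronal adhesion molecules and hold enhancers that act on those genes over long distances. Acetylation of histone tails is generally found where chromatin is accessible. Lysine 130 lies in the C-terminal tail of H2A. Abiraterone inhibits CYP17A1, an enzyme of androgen synthesis, and Romidepsin inhibits class I histone deacetylases, which remove acetyl groups from histones.

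By the values of the peak caller, gene-desert peaks looked like the other peaks of their list. Their median fold over the control was 2.83 in the abiraterone list and 2.61 in the Romidepsin list, the same medians as those of all other peaks of each list. Many folds were tied, with 470 of the abiraterone gene-desert peaks at 2.69 and 998 of the Romidepsin ones at 2.61. Equal medians are thus only a weak sign of likeness. Folds ranged from 1.79 to 16.1 in the abiraterone list and from 1.74 to 7.84 in the Romidepsin list. They were not compared between lists because they were not normalized between libraries. Their median width was 342 bp against 339 bp for the other abiraterone peaks, and 338 bp against 349 bp for the other Romidepsin peaks. A q-value of 0.01 or less was carried by 973 of the abiraterone gene-desert peaks (24.96%, 23.6 to 26.4%), beside 24.9% of the whole list. It was carried by 113 of the Romidepsin gene-desert peaks (2.78%, 2.30 to 3.33%), beside 2.73% of the whole list. Most gene-desert peaks of both lists thus had a q-value above 0.01, as did most other peaks. On the −log10 scale, where 2 stands for 0.01, their q-values went down to 0.677 in the abiraterone list and 0.240 in the Romidepsin list. The other peaks of each list had the same minimum. The full lists therefore hold many weakly supported peaks, and the counts and densities below rest on them unless a q-value limit is named. The median distance to the start site was 721 kb in the abiraterone list and 720.3 kb in the Romidepsin list. Within 10 kb of the distance of 500 kb lay 112 abiraterone peaks inside it and 138 outside, and 130 and 136 Romidepsin peaks. The closest abiraterone peak inside it lay 500129 bp from ETV1 with a fold of 3.65, and the closest outside it 499920 bp from TMEM114 with a fold of 2.78. In the Romidepsin list these were a peak 500191 bp from NR3C2 with a fold of 2.58 and one 499922 bp from IGFBP3 with a fold of 2.61.

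The lists differed in how dense their intergenic peaks were close to genes, and had nearly equal densities in the deserts. Intergenic sequence at least 500 kb from every start site, less stretches of 1 Mb or more with no peak of any kind in either list, amounted to 198 Mb and is called desert here. It held 19.7 abiraterone peaks per Mb (exact 95% Poisson interval 19.1 to 20.3) and 20.5 Romidepsin peaks per Mb (19.9 to 21.2). Between 50 and 500 kb from a start site the densities were 21.3 per Mb (21.01 to 21.6) for abiraterone and 27.2 (26.8 to 27.5) for Romidepsin. Within 50 kb, outside the 3 kb called promoter, they were 18.8 (18.5 to 19.2) and 29.1 (28.7 to 29.6). The Romidepsin density thus fell with distance from genes, while the abiraterone density stayed between 18.8 and 21.3 per Mb and was highest in the middle band. The ratio of abiraterone to Romidepsin peaks rose accordingly from 0.647 (0.631 to 0.663) within 50 kb to 0.785 (0.770 to 0.800) and then to 0.959 (0.918 to 1.00) in the deserts. It was 0.732 over all peaks outside the deserts. On each of the 18 chromosomes with at least 2 Mb of desert, the Romidepsin density was lower in the desert than between 50 and 500 kb, whereas the abiraterone density was lower on 12 of them. When the density of each band was weighted by the desert length of these chromosomes, the Romidepsin values from the innermost band outward were 30.5, 28.0 and 20.7 per Mb and the abiraterone values 19.7, 21.6 and 19.8. Among peaks with a q-value of 0.01 or less the order of the ratios was the same, at 6.52 (5.87 to 7.25), 7.70 (7.07 to 8.40) and 8.61 (7.08 to 10.6). Neighbouring intervals of the ratio overlapped, however, and the abiraterone list now had the more peaks throughout. The Romidepsin densities of such peaks were 0.718 (0.650 to 0.792), 0.702 (0.647 to 0.760) and 0.571 (0.471 to 0.686) per Mb. Their intervals overlapped, so a fall with distance was not resolved at this limit.

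**Figure D1:**
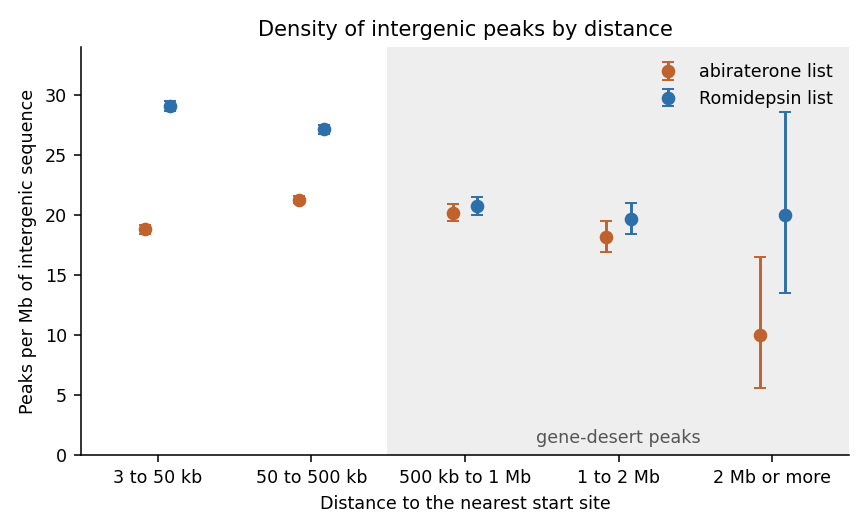
Peaks per Mb of intergenic sequence (vertical axis) by distance to the nearest start site (horizontal axis) in the abiraterone and Romidepsin lists, with exact 95% Poisson intervals as bars and the gene-desert bands shaded. The Romidepsin points go down from 29.1 within 50 kb to 20.8 between 500 kb and 1 Mb, where they meet the abiraterone points at 20.2. The points at 2 Mb or more rest on sequence of chromosome 4 alone.

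Between 500 kb and 1 Mb from a start site lay 3086 abiraterone and 3171 Romidepsin peaks, at 20.2 (19.52 to 20.9) and 20.8 (20.1 to 21.5) per Mb. Between 1 and 2 Mb lay 797 and 863, at 18.2 (16.95 to 19.50) and 19.7 (18.4 to 21.1) per Mb. The abiraterone density was lower in the farther band, with intervals that barely parted, and the Romidepsin intervals overlapped. Such intervals count every peak as independent. Yet 20.1% and 16.9% of the abiraterone peaks in these bands were at most 160 bp wide with another peak within 500 bp. The bands were also not weighted by chromosome here, so the abiraterone difference is not read as a fall with distance. Only 15 abiraterone and 30 Romidepsin peaks lay 2 Mb or more away, at 10.0 (5.61 to 16.5) and 20.04 (13.5 to 28.6) per Mb of the 1.497 Mb found at that distance. These intervals overlapped, while that of the ratio, 0.500 (0.250 to 0.959), lay below 1. All of this sequence lay on chromosome 4, most of it between PCDH7 and ARAP2. That whole desert had a ratio of 0.510 (0.354 to 0.727), and the deserts of chromosome 4 together one of 0.592. The farthest band thus describes chromosome 4 alone. The core of a desert is the stretch at least 500 kb from the start sites on either side. In the 14 deserts with a core of 2 Mb or more the Romidepsin density was 20.1 (18.7 to 21.6). It was 23.9 (22.3 to 25.5) in the 173 deserts with a core under 0.5 Mb. Cores of 0.5 to 1 Mb and of 1 to 2 Mb had 19.4 and 19.9 Romidepsin peaks per Mb. Only the narrowest class thus stood apart, and the Romidepsin density did not fall steadily with core width. The abiraterone densities in the widest and narrowest classes were 18.9 (17.6 to 20.4) and 20.8 (19.3 to 22.3), with overlapping intervals. For cores of 0.5 to 1 Mb and 1 to 2 Mb the abiraterone intervals were 19.8 to 22.3 and 17.6 to 19.6 per Mb. These did not overlap.

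The gene-desert peaks were spread over all chromosomes, in proportions that only partly followed the amount of desert. Chromosome 4 had the most desert, 28.3 Mb or 14.3% of the total, and held the most Romidepsin gene-desert peaks, 682 (16.8%), but 404 of the abiraterone ones (10.4%). Chromosome 5 held the most abiraterone gene-desert peaks, 447 (11.5%), on 9.02% of the desert, beside 340 of the Romidepsin ones. Chromosome 2 followed in the Romidepsin list with 544, beside 375 in the abiraterone list. At the other end, chromosomes 15, 17, 19, 20 and 22 had between 0.171 and 1.21 Mb of desert each and at most 26 abiraterone and 34 Romidepsin gene-desert peaks. Chromosome Y had 1.74 Mb of desert and 3 peaks of each list.

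Per Mb of desert the chromosomes differed beyond counting error, and the lists did not share their order. Among the 18 chromosomes with at least 2 Mb of desert, the abiraterone density was highest on chromosome 11 at 29.0 (25.8 to 32.6), with overlapping intervals on chromosomes 1, 3, 5, 7 and 10 at 25.05 to 26.8, and lowest on chromosome 21 at 10.3 (6.44 to 15.6) and chromosome X at 10.9 (9.03 to 12.96), whose intervals overlapped. The Romidepsin density was highest on chromosome 2 at 25.5 (23.4 to 27.7), close to chromosome 10 at 24.9 and chromosomes 4, 11 and 12 at 24.1, with overlapping intervals. It was lowest on chromosome 3 at 12.9 (11.02 to 14.9), chromosome 14 at 13.9 (11.4 to 16.7) and chromosome 13 at 14.2 (12.1 to 16.6), which also overlapped. Chromosome 3 carried 25.8 abiraterone peaks per Mb of desert (23.2 to 28.6) at its low Romidepsin density, and chromosome 4 carried 14.3 (12.9 to 15.7) at a Romidepsin density of 24.1 (22.3 to 26.0). Chromosome 13 was sparse in both lists, with 12.8 and 14.2 per Mb.

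**Figure D2:**
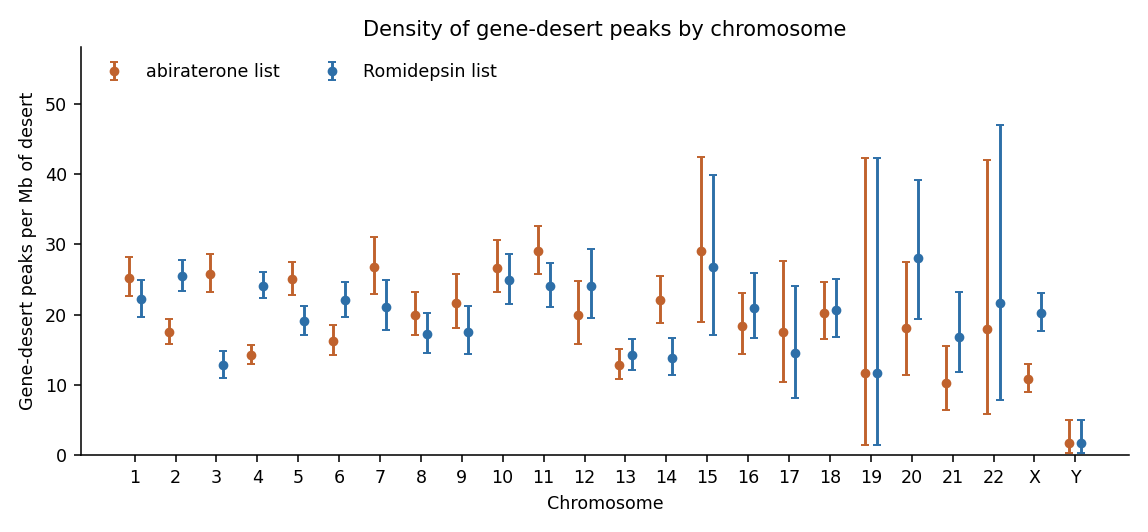
Gene-desert peaks per Mb of desert (vertical axis) on each chromosome (horizontal axis) in the abiraterone and Romidepsin lists, with exact 95% Poisson intervals as bars. The abiraterone point stands above the Romidepsin point on chromosomes 3, 5 and 14 and below it on chromosomes 2, 4, 6 and X with intervals that do not overlap, and the bars of chromosomes 15, 17, 19, 20 and 22 are wide because these hold little desert.

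The ratio of the lists in the deserts moved with the ratio of all other peaks on the same chromosome. On chromosome 3 there were 353 abiraterone and 176 Romidepsin gene-desert peaks, a ratio of 2.01 (1.67 to 2.42), and the other peaks of that chromosome had a ratio of 1.25. On chromosome X there were 123 and 229, a ratio of 0.537 (0.428 to 0.672), beside 0.437 for the other peaks. Across chromosomes 1 to 22 and X the Spearman rho of both ratios was 0.723 (n = 23, points that share the 2 libraries and the genome). The desert ratio was the higher of both on 22 of these 23 chromosomes, all but chromosome 12, where it was 0.827 against 0.862. Chromosome 14 stood farthest above its other peaks among chromosomes with at least 2 Mb of desert, with 1.59 (1.24 to 2.04) against 0.770.

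**Figure D3:**
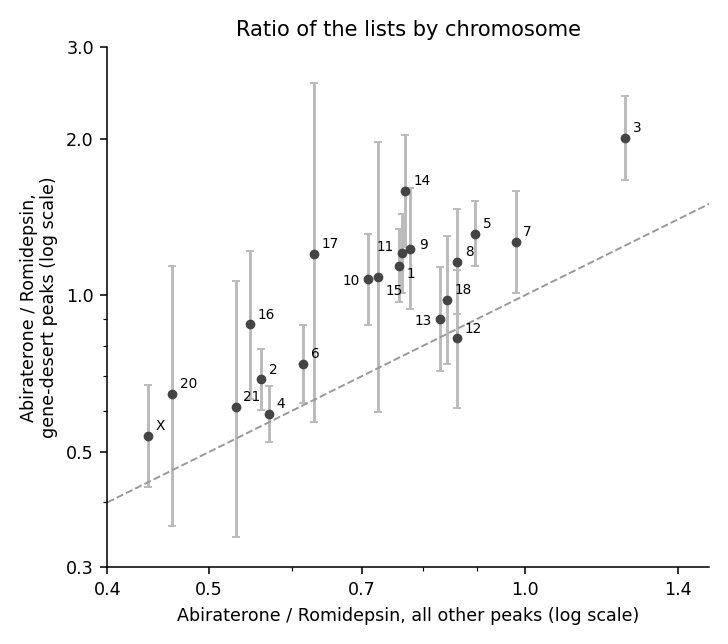
Ratio of abiraterone to Romidepsin gene-desert peaks (vertical axis, log scale) against the ratio of all other peaks of the same chromosome (horizontal axis, log scale), for chromosomes with at least 20 gene-desert peaks in both lists together, chromosome Y left out. Bars are exact 95% intervals, the dashed line marks equal ratios, and chromosome 12 is the one point under it.

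The annotation gave 314 deserts with a core, of which 287 held at least 1 gene-desert peak and 269 held peaks of both lists. A further 9 held abiraterone peaks alone and 9 held Romidepsin peaks alone. Of the 27 without any, the widest core was that between TGIF2LX and PABPC5 on chromosome X, at 0.513 Mb. Neither list was concentrated in a few deserts. The 10 fullest deserts of each list held 16.6% of the abiraterone and 15.3% of the Romidepsin gene-desert peaks, and 54 and 51 deserts were needed to reach 50%. Of these 10 fullest deserts, 5 were common to both lists.

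The fullest desert of the abiraterone list lay between MAT2B, which encodes a regulatory subunit of methionine adenosyltransferase, and TENM2, which encodes a teneurin adhesion protein of neurons (chr5:162944463-166711843). It held 101 abiraterone and 58 Romidepsin peaks on a core of 2.77 Mb, or 36.5 and 20.96 per Mb, a ratio of 1.74 (1.25 to 2.45). The desert between SEL1L, an adaptor of protein degradation at the endoplasmic reticulum, and LINC00911 (chr14:82000205-85860223) followed with 79 and 48. The desert between PLA2G4A, a cytosolic phospholipase, and BRINP3 (chr1:186798032-190444942) held 78 and 51. The desert between RAG2, of antigen receptor recombination, and LRRC4C, a netrin-G ligand (chr11:36619829-40314680), held 74 and 62, and that between the sorting receptor gene SORCS1 and XPNPEP1 (chr10:108924466-111644030) held 58 and 54. In the last 2 the interval of the ratio included 1. The desert between TUSC7 and IGSF11-AS1, both non-coding RNA genes (chr3:116428635-118661923), held 55 abiraterone and 17 Romidepsin peaks and had the highest abiraterone density among deserts with a core of at least 500 kb, 44.6 per Mb. The rest of the 10 fullest in this list were JRKL-AS1 to CNTN5 and TENM4 to MIR4300 on chromosome 11, B3GALT2 to KCNT2 on chromosome 1 and PCDH7 to ARAP2 on chromosome 4, with 49 to 53 abiraterone peaks each.

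Of the 10 fullest deserts of the Romidepsin list, 5 lay on chromosome 4, 3 of them beside a protocadherin gene. The first was PCDH7 to ARAP2 with 96 peaks, described next. The desert between IGFBP7, which encodes a protein that binds insulin-like growth factors, and ADGRL3, a latrophilin gene (chr4:57976551-62066974), held 71 Romidepsin and 48 abiraterone peaks. That between PABPC4L and PCDH18 (chr4:135122903-138453629) held 64 and 25, and that between C4orf33 and PCDH10 (chr4:130017282-134070470) 61 and 30. LINC01098 to LINC00290, also on chromosome 4, held 51 and 36. The ratio of abiraterone to Romidepsin was below 1 in all 5, and its interval lay below 1 in all but the last. GRIK2 to HACE1 on chromosome 6, named for a kainate receptor gene and a ubiquitin ligase gene, held 53 and 39. The other 4 of the 10 were MAT2B to TENM2, RAG2 to LRRC4C, SORCS1 to XPNPEP1 and PLA2G4A to BRINP3, which were also among the fullest of the abiraterone list.

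The widest desert lay between PCDH7, a protocadherin gene, and ARAP2, a gene for an Arf GTPase-activating protein (chr4:30722037-36075457). Its start sites were 5.35 Mb apart and its core was 4.35 Mb long. It held 49 abiraterone peaks, at 11.3 per Mb, and 96 Romidepsin peaks, at 22.1 per Mb, a ratio of 0.510 (0.354 to 0.727). The abiraterone density was thus below that of all desert, and the Romidepsin density close to it. The non-desert peaks within 5 Mb on either side of the core numbered 180 and 286, a ratio of 0.629. Folds ran from 1.89 to 4.72 in the abiraterone list and from 1.74 to 6.02 in the Romidepsin list. The peaks were spread along the whole core, with a median spacing of 54.5 kb and 27.7 kb, and the longest stretch without a peak of the list was 337 kb and 271 kb. A q-value of 0.01 or less was reached by 10 of the abiraterone and 1 of the Romidepsin peaks, and 1 peak of each list overlapped the other list. The peaks farthest from any start site in the whole data lay near the middle of this desert, an abiraterone peak at chr4:33406249-33406584, 2668873 bp from ARAP2, and a Romidepsin peak at chr4:33409102-33409486, 2665971 bp away. These peaks lay 2518 bp apart and did not overlap. Their folds of 2.69 and 2.26 were both below the median of their list.

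**Figure D4:**
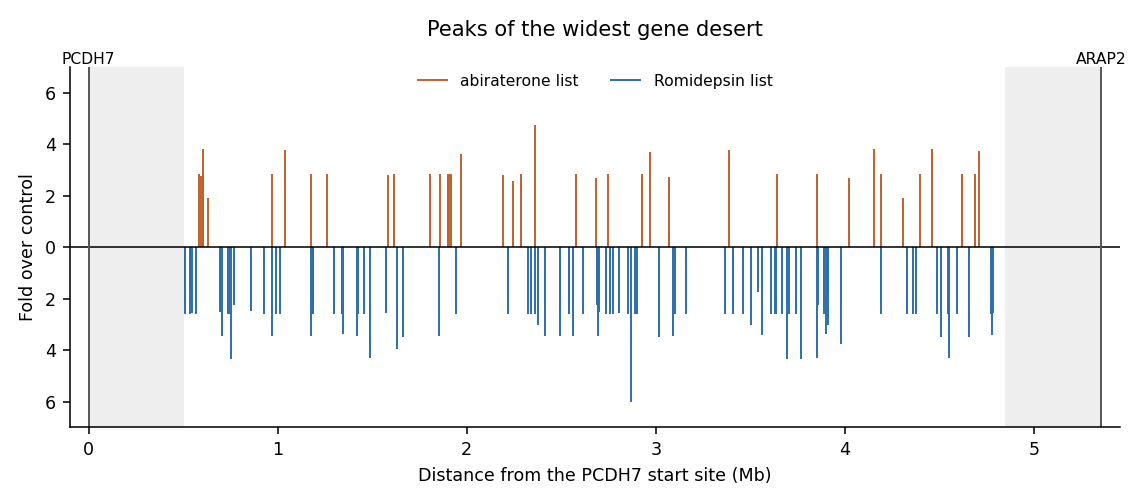
Gene-desert peaks between the start sites of PCDH7 and ARAP2, by distance from the PCDH7 start site in Mb (horizontal axis) and fold over control (vertical axis, abiraterone upward and Romidepsin downward). The shaded flanks lie within 500 kb of a start site and are no part of the core, and the 96 Romidepsin lines and 49 abiraterone lines run along the whole core, none above a fold of 6.02.

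The densities of the lists were then set side by side for each desert. Across the 141 deserts with a core of at least 500 kb, the abiraterone density ran from 0 to 44.6 per Mb with a median of 19.7, and the Romidepsin density from 0 to 55.1 with a median of 19.5. Their Spearman rho was 0.220 (n = 141, deserts that share the 2 libraries and the genome). For densities taken relative to their chromosome it was 0.347 (n = 135), an alternative chosen after seeing the data. The Romidepsin density was highest between PTPRU, a receptor phosphatase gene, and MATN1-AS1 on chromosome 1, with 30 peaks on 0.545 Mb, beside 15 abiraterone peaks. It was next highest between MIR4268 and EPHA4, an ephrin receptor gene, on chromosome 2, where 34 Romidepsin and 24 abiraterone peaks gave 51.1 and 36.1 per Mb, among the highest densities of both lists. A few deserts were nearly empty of peaks in both, and how well reads can be placed in them was not examined. Those from TGIF2LX to PABPC5 and from PCDH11X to NAP1L3 on chromosome X, from NLGN4Y-AS1 to FAM41AY2 on chromosome Y, and from MIR4436A to ACTR3BP2 on chromosome 2 had 0 to 2 abiraterone and 0 to 3 Romidepsin peaks each, the lowest densities of either list.

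**Figure D5:**
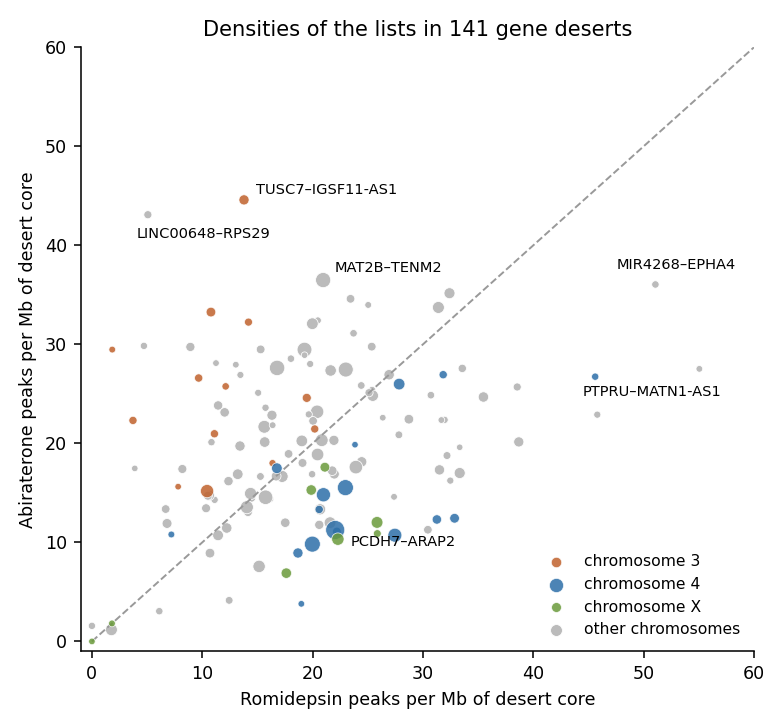
Abiraterone (vertical axis) against Romidepsin (horizontal axis) peaks per Mb of desert core in the 141 deserts with a core of at least 500 kb, with point area in proportion to the length of the core and a dashed line at equal densities. The deserts of chromosome 3 sit above the line, and those of chromosome 4 and chromosome X mostly on or below it.

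The ratio of the lists differed between deserts by chromosome. Of the 148 deserts with at least 20 gene-desert peaks in both lists together, 65 held more abiraterone peaks, 74 more Romidepsin peaks and 9 equal numbers. The interval of the ratio lay above 1 in 13 and below 1 in 20. All 12 such deserts of chromosome 3 had a ratio above 1, and 11 of 14 on chromosome 5. The ratio was below 1 in 15 of 16 on chromosome 4, in 14 of 17 on chromosome 2 and in 7 of 7 on chromosome X. The ratio of a desert moved with that of the other peaks within 5 Mb on either side of its core (Spearman rho 0.638, n = 148, neighbouring deserts partly sharing flanks).

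Among these deserts with at least 20 gene-desert peaks, the 5 highest ratios ran from 3.24 to 8.50. Between LINC00648 and RPS29, a ribosomal protein gene (chr14:48264217-50053134), there were 34 abiraterone and 4 Romidepsin peaks, a ratio of 8.50 (3.03 to 33.0), while the surrounding peaks had a ratio of 1.27. Between CCDC179 and LUZP2 (chr11:22881972-24518516) there were 19 and 3, and between OTOL1 and LINC01192 (chr3:161214596-163021089) 18 and 3, with surrounding ratios of 0.880 and 2.73. POT1, a telomere-binding protein gene, to MIR592 on chromosome 7 held 30 and 9, and TUSC7 to IGSF11-AS1 came next with a ratio of 3.24 (1.85 to 5.95). The 5 lowest ratios among the same deserts lay between 0.370 and 0.391. They belonged to QKI, an RNA-binding protein gene, to C6orf118 on chromosome 6 with 10 abiraterone and 27 Romidepsin peaks, MIR2054 to INTU on chromosome 4 with 14 and 37, UTRN to EPM2A on chromosome 6 with 7 and 18, PABPC4L to PCDH18 with 25 and 64, and SH3BGRL to POU3F4, a gene for a POU-domain transcription factor, on chromosome X with 9 and 23. The surrounding ratios of these 5 were between 0.463 and 0.588, so the nearby peaks leaned to Romidepsin as well, more than the 0.732 of all other peaks.

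Single peaks rarely coincided between the lists in the deserts. Of the abiraterone gene-desert peaks, 96 (2.46%, 2.00 to 3.00%) overlapped a Romidepsin peak by at least 1 bp, beside 4.04% of all abiraterone peaks. Of the Romidepsin gene-desert peaks, 96 (2.36%, 1.92 to 2.88%) overlapped an abiraterone peak, beside 2.9% of all Romidepsin peaks. Between 50 and 500 kb from a start site the shares were 3.79% (3.52 to 4.08%) and 2.86% (2.65 to 3.08%), and within 50 kb 4.44% and 2.74%. Peak width adds to such shares, so summits were counted as well. The summit of 47 abiraterone gene-desert peaks (1.21%, 0.887 to 1.60%) fell inside a Romidepsin peak, while Romidepsin peaks covered 0.736% of the desert. The summit of 56 Romidepsin gene-desert peaks (1.38%, 1.04 to 1.79%) fell inside an abiraterone peak, while abiraterone peaks covered 0.717%. Both shares were above the covered share, while the great majority of the gene-desert summits of either list lay outside the peaks of the other. Between 50 and 500 kb from a start site, 2.15% of abiraterone summits fell inside Romidepsin peaks covering 1.04% of that sequence. The median distance from a gene-desert peak to the nearest peak of the other list was 15.8 kb for abiraterone and 17.7 kb for Romidepsin.

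The overlapping gene-desert peaks formed 98 pairs in 68 deserts, with a median overlap of 186 bp, and all were gene-desert peaks in both lists. Chromosome 4 held 14 of the 98 pairs and chromosome 2 held 13, the largest numbers. These chromosomes held 14.3% and 10.8% of the desert. Their shares were 10.4% and 9.62% of the abiraterone gene-desert peaks, and 16.8% and 13.4% of the Romidepsin ones. No desert held more than 3, and the 6 that held 3 were GALR1 to SALL3, MAT2B to TENM2, NR3C2 to DCLK2, RAG2 to LRRC4C, SORCS1 to XPNPEP1 and STAG3L4 to AUTS2. In no pair did both peaks reach a q-value of 0.01. That limit was reached by 26 of the 96 abiraterone and 5 of the 96 Romidepsin peaks in pairs. Of all gene-desert peaks, 24.96% and 2.78% reached it, so few pairs with both peaks past it were to be had. In 33 pairs the overlap was at least 50% of both peaks. Abiraterone peaks in a pair had a median fold of 2.85 against 2.83 for those in none, and Romidepsin peaks 2.82 against 2.61. Ranked by the lower of both folds, the first pair lay 808589 bp from ADGRL2, a latrophilin gene, where an abiraterone peak at chr1:83244587-83244975 with a fold of 3.79 shared 132 bp with a Romidepsin peak at chr1:83244272-83244718 with a fold of 4.33. A group of 10 pairs tied behind it at a lower fold of 3.48. Among them, a single abiraterone peak at chr1:56215580-56216120, 524266 bp from MIR4422, was overlapped by 2 Romidepsin peaks. In the desert between INSC and SOX6, a gene for a transcription factor of cartilage and muscle, 2 narrow abiraterone peaks at chr11:15754575-15754699 and chr11:15754954-15755082 met 2 Romidepsin peaks at chr11:15754575-15754704 and chr11:15754957-15755081, nearly at the same positions.

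Of the abiraterone gene-desert peaks of highest fold, 4 are described here. The first, at chrX:5186439-5186621, had a fold of 16.1 and lay 883191 bp from NLGN4X, which encodes a neuroligin, and it ranked 4 among all abiraterone peaks. A further 3 had folds of 8.50, 8.06 and 7.66 and were nearest to ROBO1, a Slit receptor gene on chromosome 3, KCNV1, a potassium channel subunit gene on chromosome 8, and EPHA4 on chromosome 2. None of these 4 overlapped a Romidepsin peak, but those near ROBO1 and EPHA4 lay 539 and 736 bp from one. In the Romidepsin list the highest fold was 7.84, at chr2:146063909-146064079, 638375 bp from the non-coding RNA gene TEX41, a peak that ranked 11 of its list. It was followed by peaks nearest to MCPH1-DT on chromosome 8 (fold 7.61), LRRN3, a leucine-rich repeat protein gene of neurons, on chromosome 7 (6.95), SLITRK1, a neurite growth gene, on chromosome 13 (6.94) and ADGRL3 on chromosome 4 (6.88). The closest of these 5 to an abiraterone peak was that near LRRN3, at 2432 bp.

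The genes nearest to gene-desert peaks numbered 471 in each list, 431 of them shared and 511 in either list. These 511 were 2.78% of the 18368 genes that were nearest to at least 1 peak of any kind in either list. Genes nearest to no peak are missing from this total and from the totals below. Which genes flank deserts depends largely on where genes lie, so the lists below describe where the peaks lay. Of the 56 cadherin and protocadherin symbols, 15 were nearest to a gene-desert peak (26.8%), 1 of them an antisense RNA. They took 179 of the abiraterone (4.59%) and 258 of the Romidepsin gene-desert peaks (6.35%), with PCDH7 at 34 and 56, CDH8 at 28 and 35, PCDH18 at 15 and 36 and PCDH10 at 8 and 25. Of the 100 genes listed by symbol under neuronal adhesion and guidance, 27 were nearest to one, with 360 (9.24%) and 329 (8.10%) of the peaks. These counts take in ADGRL4, with 21 and 19 peaks, which shares the symbol stem of the latrophilin genes but is not one of them. TENM2 led with 64 abiraterone and 35 Romidepsin peaks, and ADGRL3 had 36 and 37. Of the 209 ion channel and neurotransmitter receptor genes, 21 were nearest to one, with 157 and 143 peaks, led by KCNT2, a potassium channel gene, with 26 and 21, and GRIK2 with 21 and 22. Of the 223 developmental transcription factor genes, 14 were nearest to one (6.28%), with 68 and 92 peaks. TBX3, a T-box gene of limb and mammary development, had 7 and 18, SALL3 7 and 15, and IRX1 13 and 7. Of the 2115 non-coding RNA genes, 97 were nearest to one, with 678 (17.4%) and 625 (15.4%) of the peaks. A protein-coding gene, by the RefSeq type, was nearest to 73.2% of the abiraterone and 74.4% of the Romidepsin gene-desert peaks. Of the 18368 genes, 15269 were of that type. The shares of all peaks nearest to these gene groups are not given, so the peak shares do not set gene-desert peaks apart from other peaks.

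A set of regions known as gene deserts was looked up whatever its values. The desert between KCNJ2, a potassium channel gene, and SOX9, whose expression in cartilage and testis depends on distant enhancers there, held 14 abiraterone and 10 Romidepsin peaks on 0.951 Mb of core, at 14.7 and 10.5 per Mb. The 4 deserts from CDH12 to CDH6 on chromosome 5 held 52 and 35 on 2.91 Mb, at 17.9 and 12.03 per Mb. The desert between CDH8 and CDH11 on chromosome 16 held 40 and 41 on 1.97 Mb, at 20.3 and 20.8 per Mb, close to the density of all desert in both lists. The deserts from PCDH9 to DACH1 on chromosome 13 held 4 and 11 on 0.877 Mb, and those from SLITRK1 to GPC5 on the same chromosome 15 and 9 on 1.14 Mb. All of these densities but those of CDH8 to CDH11 were below the density of desert as a whole in the same list. The start sites of SOX2, NCAM2, NR2F1 and NR2F2 themselves bounded no desert. The antisense gene NR2F1-AS1, beside NR2F1, bounded one toward ARRDC3 that held 18 abiraterone and 13 Romidepsin peaks on 1.22 Mb of core, and LINC00320, on the same chromosome as NCAM2, bounded one toward TMPRSS15 with 15 and 16 on 1.399 Mb.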

How the data were processed

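The H2A-K130ac ChIP-seq peak lists of the abiraterone and Romidepsin samples of C4-2B were used, 1 library each, and the 3 VCaP samples were not analysed here. Per the labels, reads were aligned with Bowtie 2 and peaks were called with MACS, which the submitters' processing notes name as MACS2, without a version. Those notes name hg38, whereas the last peak of chromosome 1 ends at 249191832, beyond that chromosome in hg38, and the transcripts are those of UCSC for hg19, so hg19 was taken. For each peak the authors deposited a score, a fold over control, the −log10 p-value and −log10 q-value of the peak caller, and the annotation with the distance to the nearest start site. The score was the whole part of 10 times the −log10 p-value and was otherwise not used, and a −log10 q-value of 2 stands for a q-value of 0.01. The first peak of each list had become the column header of its annotated table and was lost. The conservative tables held the same peaks. Whether the duplicates named in the reporting form were pooled is not given in the sources used here.

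Start sites were the 26156 that the annotation of either list named as nearest to a peak, which cover only transcripts with a gene identifier. The desert of a gap between neighbouring start sites is what lies at least 500 kb from both, outside gene bodies, less 37 stretches of at least 1 Mb (240.4 Mb in all) without any peak. Unsequenced stretches could not be told from empty ones, since no hg19 genome was used here, and no sequences are given. Gene types came from RefSeq on GRCh38.p14, where 18278 of 18368 gene identifiers matched. Overlap meant 1 shared bp. Binomial and Poisson intervals were exact, at 95%, and ratio intervals came from the binomial. The calculation of densities and overlaps was checked on simulated lists with known densities and overlaps, which is no test of the observed values. The work was done in Python 3.11.15 with pandas 2.3.3, numpy 2.4.6, matplotlib 3.10.9 and scipy 1.17.1.

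The treatments were compared without a test. Named deserts were the 10 fullest of each list, the 5 highest and 5 lowest ratios among deserts with at least 20 peaks, and the widest, and named peaks the 5 of highest fold, the 3 farthest and the 5 first pairs. Deserts of extreme density or with 3 pairs were named after their values were seen. The gene-desert peaks and the gene lists were chosen with earlier results of these data known. A looked-up region and a peak that the rule names are not reported here. Alternatives are given in the closing section.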

Additional observations from a re-analysis of the deposited data

How the results depend on the processing

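Of 43 alternatives over 12 results, 20 left the value within its counting error or, for a count, within 1.5 times, and 23 moved it. No paired analysis was possible because there was 1 library for each treatment. Values are given for abiraterone, then Romidepsin. At 1 Mb or more from a start site there were 812 and 893 peaks (1.20% and 0.977% of the lists), at 17.9 and 19.7 per Mb, with a ratio of 0.909, and 1.90% of the Romidepsin peaks were overlapped. With a q-value of 0.01 or less there were 973 and 113, at 4.92 and 0.571 per Mb, with median folds of 3.78 and 5.16, a ratio of 8.61, and 0% and 0% overlapped by such a peak of the other list, so the near-equal densities hold only for the full lists. With no stretch left out, the densities were 9.52 and 9.92 per Mb. When an overlap of 50% of both peaks was required, 0.847% and 0.812% were overlapped, and with peaks within 1 kb counted, 6.57% and 6.23%. Peaks of any annotation at that distance numbered 4218 and 4469. The rho of desert densities was 0.188 for cores of at least 1 Mb, 0.196 on autosomes and 0.106 with the q-value limit. Chosen after seeing the data were peaks wider than 160 bp (2.44% and 2.29% overlapped) and densities relative to their chromosome (rho 0.347, 135 deserts). The lists give no depth.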

Other observations

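At 500 kb or more from a start site lay a further 320 abiraterone and 405 Romidepsin peaks that the annotation places inside genes, 309 and 389 of them in introns. They were found in very long genes, first in LRP1B, a lipoprotein receptor gene, with 21 and 36, FHIT, of a common fragile site, with 29 and 24, PTPRD with 21 and 20, and ERBB4 with 16 and 20. Of these intron peaks, 62 and 85 lay in transcripts without a gene identifier.

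Peaks of at most 160 bp with another peak of the list within 500 bp made up 19.6% of the abiraterone gene-desert peaks (18.4 to 20.9%), beside 24.7% of the other abiraterone peaks and 26.6% of the intergenic peaks within 50 kb. In the Romidepsin list they made up 7.26% (6.48 to 8.10%), beside 8.40% of the others. Of the 15 abiraterone peaks at 2 Mb or more from a start site, 8 were such short peaks.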
